A study of Rattus norvegicus with 2 samples.

Results

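The small leucine-rich proteoglycans are secreted proteins that bind collagen fibrils in cartilage, tendon, skin and other connective tissue. The 9 genes described here, Dcn (decorin), Bgn (biglycan), Fmod (fibromodulin), Lum (lumican), Prelp, Ogn (osteoglycin), Omd (osteomodulin), Epyc (epiphycan) and Kera (keratocan), were chosen by symbol, each matched 1 row in both libraries, and they were 9 of 18147 genes listed for both. Their levels were followed across cell classes of rat cartilage. The tissue came from Lewis rats in 2 groups with 1 library each. Control rats had no treatment, and the series' design text calls them sham. The rats with collagen-induced arthritis (CIA) had received type II collagen together with Complete Freund's Adjuvant and were collected on day 14. How many animals or which joints entered each library was not given in the sources used here.

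As background, the proteins share a core of leucine-rich repeats that bends around collagen. Decorin and biglycan carry chondroitin or dermatan sulfate chains. Fibromodulin, lumican and keratocan can carry keratan sulfate, and fibromodulin and osteomodulin carry sulfated tyrosines. They limit the width of fibrils and guide their cross-linking, and decorin and biglycan also bind growth factors such as TGF-beta and BMPs. When matrix is broken down, fragments of several of them are released into the joint fluid.

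Of the 9 genes, 6 had an entry in the RefSeq promoter table (GRCr8, a later build than the mRatBN7.2 used for the counts). Dcn, Bgn and Prelp had none. The 250 bases before the start site are shown for Lum, Kera and Epyc, which lie near each other on the same chromosome, and for Fmod, a member higher in chondrocyte-like than in fibroblast-like cells. Capitals mark 2 motifs on either strand, the CCAAT box and the GC box, spelled GGGCGG. These 2 of the 8 motifs searched were marked after their matches were seen, and the gene strand is + for these 4 genes. Lum is at chr7:34245456-34245705, Kera at chr7:34283850-34284099, Epyc at chr7:34323082-34323331 and Fmod at chr13:48045317-48045566.
Lum: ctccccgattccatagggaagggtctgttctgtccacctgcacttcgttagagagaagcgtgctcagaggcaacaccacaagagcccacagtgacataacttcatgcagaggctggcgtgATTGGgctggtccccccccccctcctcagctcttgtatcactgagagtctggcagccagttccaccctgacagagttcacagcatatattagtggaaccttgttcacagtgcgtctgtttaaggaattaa
Kera: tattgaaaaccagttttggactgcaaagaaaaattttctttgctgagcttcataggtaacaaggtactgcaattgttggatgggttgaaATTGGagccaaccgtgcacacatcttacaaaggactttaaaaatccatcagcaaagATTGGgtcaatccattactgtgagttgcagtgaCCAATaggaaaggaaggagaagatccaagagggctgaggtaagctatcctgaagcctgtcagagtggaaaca
Epyc: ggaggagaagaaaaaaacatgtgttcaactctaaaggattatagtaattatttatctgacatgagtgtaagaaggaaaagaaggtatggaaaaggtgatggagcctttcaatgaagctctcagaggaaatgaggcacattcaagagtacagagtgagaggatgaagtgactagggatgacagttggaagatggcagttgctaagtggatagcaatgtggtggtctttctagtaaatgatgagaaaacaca
Fmod: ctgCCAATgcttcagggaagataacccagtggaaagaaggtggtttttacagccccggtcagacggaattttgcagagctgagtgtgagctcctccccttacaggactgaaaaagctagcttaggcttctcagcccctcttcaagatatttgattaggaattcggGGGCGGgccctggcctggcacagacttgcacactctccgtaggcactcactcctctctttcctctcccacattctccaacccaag
Both strands were searched for each motif. CCAAT was found in the windows of Fmod, Kera and Lum, 3 of the 6 members with an entry, and in 34.02% of all 33469 promoters of this length. GGGCGG was found in Fmod and in 30.47% of all. TATAA was found in Epyc and Ogn and in 23.97% of all. Its longer form TATAAA, which overlaps it, was found in Ogn and in 12.93% of all, and AACAAT in Kera and in 10.33%. The AP-1 motif TGANTCA, present in 6.34% of all promoters, was in none of the 6 windows. The E-box CACGTG (5.59% of all) and the ETS motif ACCGGAAG (2.02% of all) were also in none. These matches describe letters in these windows only.

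The control library held 5456 barcodes and 76927821 UMIs (unique molecular identifiers, each marking 1 captured RNA molecule), and the CIA library 8622 barcodes and 105752977 UMIs. The median cell had 11873 and 10541 UMIs. After filters, 5349 and 8409 cells were kept, and the libraries shared 51 cell barcodes. Cells were sorted into classes by the summed level of marker genes, none of them a member, in CPM (counts scaled to a fixed library total of UMIs). Chondrocyte-like cells, which make type II collagen and aggrecan, were 321 of the control cells (6.0%) and 39 of the CIA cells (0.464%). Lining-like cells, marked by Prg4 (lubricin) and 5 other genes, were 293 and 795. Fibroblast-like cells, marked by type I and III collagens and others, were 2374 and 3320. All 13 chondrocyte markers were highest in the chondrocyte-like class, as were 5 of 6 lining and 8 of 12 fibroblast markers in theirs. Over all kept cells, 29 control and 28 CIA cells lay within 1.25-fold of the chondrocyte cut on either side, and 152 and 334 within 1.25-fold of the lining cut. The 39 CIA chondrocyte-like cells had a median of 19057 CPM of the summed fibroblast markers against 3343 in the control cells, and 15725 against 35435 CPM of the summed chondrocyte markers. Their clusters differed too: 300 of 321 control cells but 22 of 39 CIA cells were in cluster 12, and 15 of the 39 were in the fibroblast cluster 1. With 1 library per group there was no test. A difference between groups is given with an exact 95% interval that covers counting error only, and it was called when it was at least 2-fold with that interval wholly beyond 1.5-fold, with 100 UMIs or more over the 2 libraries as the minimum for a gene to be measured.

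Cells of a class taken here to lack these genes still held their RNA, and this was used as the floor for the levels below. Endothelial cells, which line vessels, had 283 (control) and 330 (CIA) CPM of Dcn, 618 and 589 CPM of Lum, and 342 and 222 CPM of Bgn. For Fmod they had 38.4 and 9.37 CPM, and for Prelp 25.9 and 14.6 CPM. Macrophage- or monocyte-like cells had a similar level of Lum, 577 and 543 CPM, and a UMI of Lum was found in 99.7% and 98.6% of them. These cells held 12310 and 9679 UMIs at the median. A share of cells with a UMI of Dcn or Lum therefore did not mark cells that make them. The share of cells above the 99th percentile of the endothelial cells is given instead. The floor is less sure for Bgn, as the ratio of Dcn to Bgn UMIs differed between these classes. It was 0.828 and 1.49 in endothelial cells and 1.24 and 2.12 in macrophage- or monocyte-like cells. Whether endothelial cells make Bgn themselves was not tested.

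**Figure D1:**
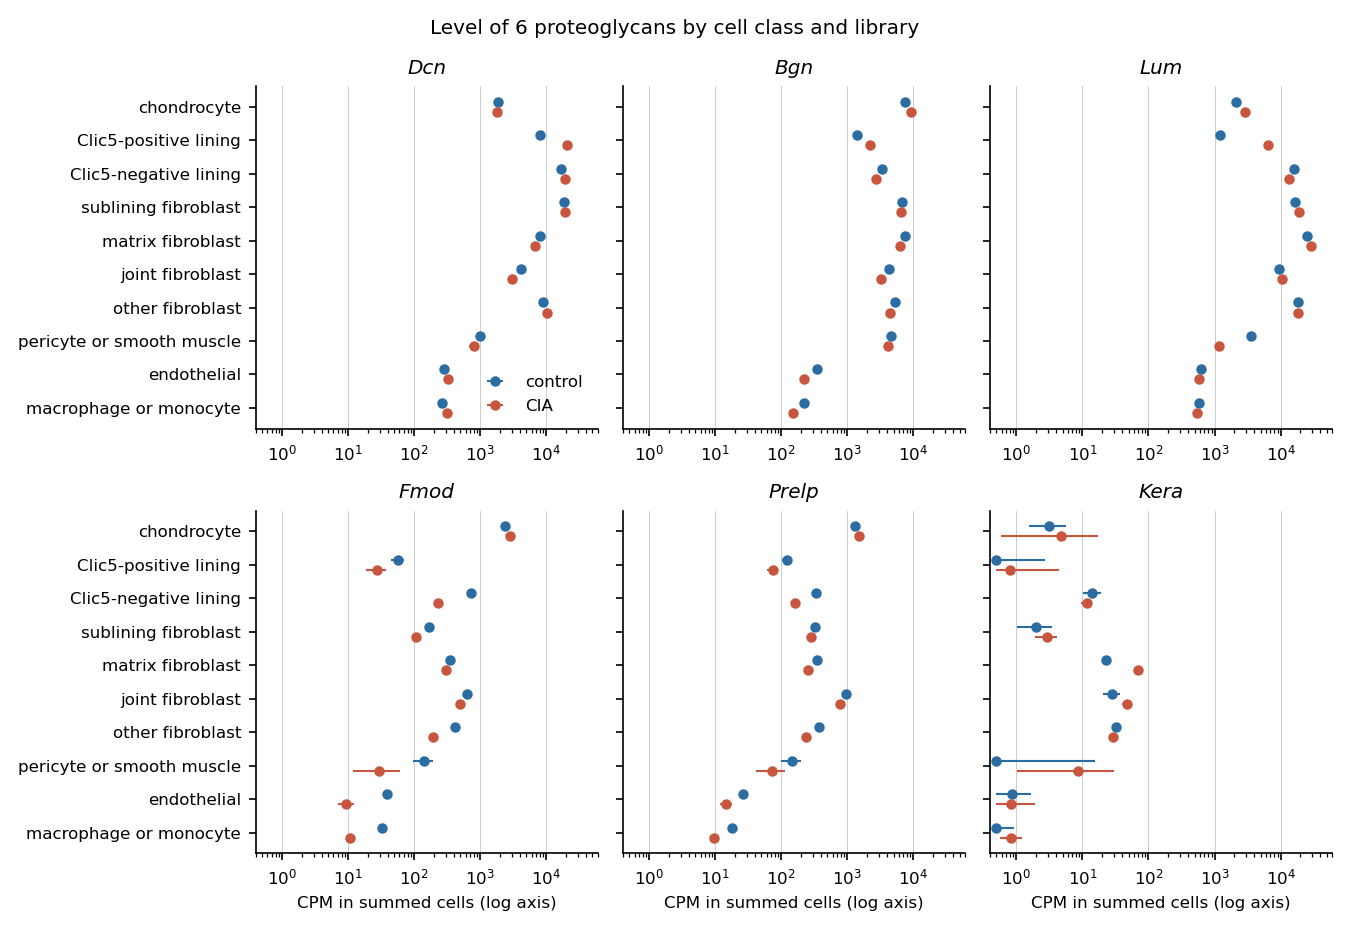
CPM of 6 members in summed cells of 10 classes on a log axis, blue for the control and red for the CIA library, with exact 95% Poisson intervals; levels of 0 are drawn at the left edge. Fmod and Prelp were highest in chondrocyte-like cells, Lum in matrix fibroblasts, and endothelial and macrophage- or monocyte-like cells gave the low end of each panel for Dcn, Bgn, Fmod and Prelp.

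Fmod and Prelp were higher in chondrocyte-like than in fibroblast-like cells in both libraries. Fmod, which binds type I and II collagen fibrils and recruits lysyl oxidase, had 2376 CPM in chondrocyte-like cells of the control and 2817 in those of the CIA library. Fibroblast-like cells had 375 and 213 CPM, so the chondrocyte level was 6.34-fold higher in the control (6.17 to 6.52) and 13.2-fold higher in the CIA library (12.4 to 14.0). A level above the endothelial 99th percentile was reached by 305 of 321 and 38 of 39 chondrocyte-like cells, against 31.2% and 25.2% of fibroblast-like cells. Single control chondrocyte-like cells ran from 0 to 13512 CPM with a median of 2169, and CIA cells from 186 to 6645 with a median of 2704.

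Prelp, a collagen-binding protein whose basic end attaches to heparan sulfate, followed the same order. It was at 1295 and 1487 CPM in chondrocyte-like cells and at 397 and 298 CPM in fibroblast-like cells, 3.26-fold (3.15 to 3.38) and 4.99-fold (4.60 to 5.41) higher in the former. Lining-like cells had 269 and 150 CPM. Within the fibroblasts, the subset marked by Aqp3 and Fam180a (joint fibroblasts, 113 and 175 cells) was highest, at 943 and 762 CPM of Prelp and 627 and 493 CPM of Fmod. Fmod and Prelp also varied together from cell to cell. Spearman's rho over cells was 0.460 in 321 control and 0.299 in 39 CIA chondrocyte-like cells, 0.328 and 0.321 in fibroblast-like cells, and near 0 (-0.00519 and 0.0278) in endothelial cells. This was not particular to the pair, as Bgn and Fmod had a rho of 0.382 in control and 0.547 in CIA chondrocyte-like cells. Pearson's r of Fmod and Prelp in the CIA chondrocyte-like cells was 0.151. Cells of 1 class share their library and differ in depth, so these are descriptions.

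Bgn, the chondroitin or dermatan sulfate proteoglycan of pericellular matrix, was shared between chondrocytes and fibroblasts. Chondrocyte-like cells had 7566 and 9193 CPM, fibroblast-like cells 6317 and 5302 CPM, and lining-like cells 2754 and 2689 CPM. The chondrocyte level was 1.20-fold the fibroblast level in the control (1.18 to 1.21) and 1.73-fold in the CIA library (1.68 to 1.79), under the 2-fold size rule in both. With classes taken from clusters, the CIA value was past it, at a log2 ratio of 1.07. Pericytes or smooth muscle-like cells (23 and 34 cells) had 4638 and 4188 CPM, far above the endothelial level.

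Dcn and Lum were low in chondrocyte-like cells. Dcn, which binds collagen and TGF-beta, was at 1878 and 1777 CPM there, 5.48-fold and 6.60-fold lower than in fibroblast-like cells (10288 and 11732 CPM). Above the endothelial 99th percentile of Dcn were 24.0% and 41.0% of chondrocyte-like cells, against 87.4% and 85.7% of fibroblast-like cells. Lum, which regulates fibril assembly, was at 2101 and 2843 CPM in chondrocyte-like cells, 9.26-fold and 7.06-fold lower than in fibroblast-like cells (19465 and 20059 CPM). The shares above the endothelial 99th percentile were 18.7% and 43.6% for Lum in chondrocyte-like cells. The median cell was close to the endothelial level, at 660 CPM of Lum and 409 CPM of Dcn in the control, so the summed level rested on a minority of cells. In CIA, 1 cell held 31.4% of the Lum UMIs and 1 cell 22.6% of the Dcn UMIs of the class.

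Among the 3 named fibroblast subsets, Dcn and Lum were highest in different ones. Dcn was highest in sublining fibroblasts (marked by Sectm1a, Sectm1b and Cbln1; 389 and 857 cells), at 18626 and 19486 CPM, followed by matrix fibroblasts (Egfl6 and Mfap2; 737 and 623 cells) at 8041 and 6827 CPM and joint fibroblasts at 4106 and 3019 CPM. Fibroblasts outside the named subsets lay between sublining and matrix, at 8944 and 10351 CPM, and those in several subsets at 10018 and 11627 CPM. Lum was highest in matrix fibroblasts, at 25080 and 28662 CPM, with 16330 and 19296 CPM in sublining and 9612 and 10400 CPM in joint fibroblasts. The ratio of Dcn to Lum UMIs was 1.14 and 1.01 in sublining fibroblasts and 0.321 and 0.238 in matrix fibroblasts. Sublining fibroblasts thus had 2.32-fold (control) and 2.85-fold (CIA) the Dcn level of matrix fibroblasts, past the size rule in both libraries. For Lum the difference of 1.54-fold and 1.49-fold the other way was under it. The order of the 3 subsets was the same in the 2 libraries for both genes. These subsets were set by their own markers, and the cuts were chosen after the files were seen.

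Lining-like cells were split by Clic5, a marker of the lining, at 200 CPM, a cut set after the files were seen. In the control library, Clic5-positive cells (109 cells) had 1220 CPM of Lum against 16052 CPM in Clic5-negative cells (184 cells), 13.2-fold lower. Their median cell had 584 CPM, next to the endothelial median of 600 CPM, and 6.42% of them were above the endothelial 99th percentile. Their Dcn was 8087 against 16768 CPM, and all 109 were above the endothelial 99th percentile of Dcn. The ratio of Dcn to Lum UMIs was 6.63 in these cells, the highest of the classes for which it was computed in the control library. Fmod was 57.1 against 721 CPM, 12.6-fold lower, and Prelp 121 against 337 CPM.

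The comparison of CIA with control asked whether arthritis went with a change in each gene within a class. In chondrocyte-like cells none of the 5 members with enough UMIs was called, beside 10.1% of 3773 genes measured there. Of the genes called there, 45.5% were higher in CIA, and 14.3% with TMM factors, another way to scale the libraries. The ratios of CIA to control were 0.946 (0.876 to 1.02) for Dcn, 1.22 (1.17 to 1.26) for Bgn, 1.19 (1.11 to 1.26) for Fmod, 1.35 (1.27 to 1.44) for Lum and 1.15 (1.05 to 1.25) for Prelp. The median log2 ratio of the 5 was 0.25, and that of all genes measured 0.27. With TMM factors the median of all genes moved to -0.10, a shift of -0.37, and Bgn, Fmod and Prelp were then below 1 (log2 ratios of -0.0929, -0.13 and -0.17). Without the cell richest in Lum in each library, the Lum ratio was 0.980. With the marker cut doubled, Lum was called higher (log2 ratio of 1.08), and with classes taken from clusters Dcn was called higher (1.41). The fibroblast markers given above also differed between these cells, and their part in the ratios was not tested.

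**Figure D2:**
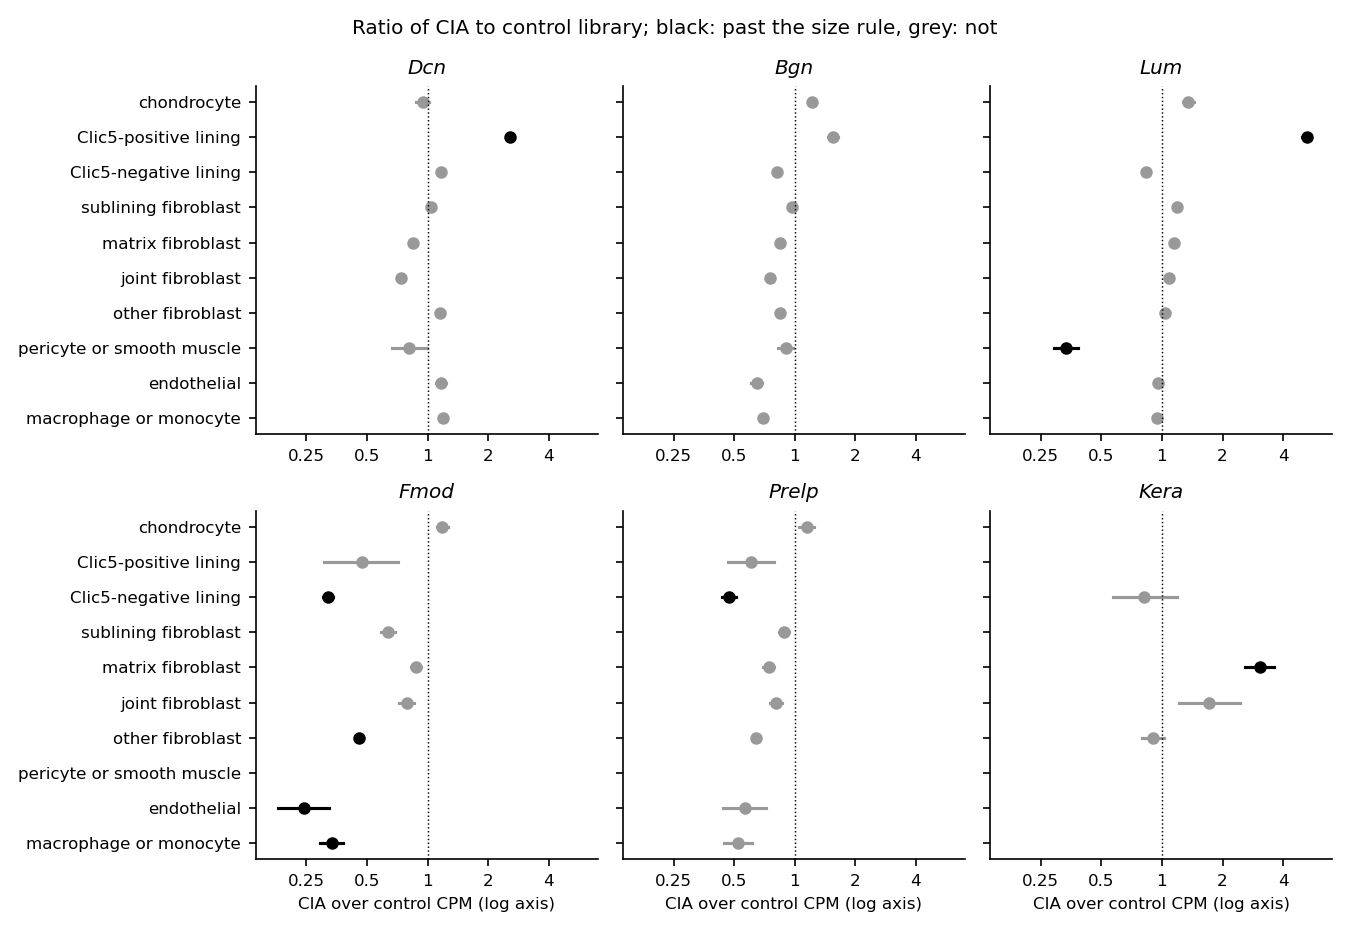
CIA over control CPM of 6 members in 10 classes on a log axis, with exact 95% intervals for counting error; black points were called by the size rule, grey were not, and classes with under 100 UMIs are blank. Lum in Clic5-positive lining sits at 5.23, and Fmod lies left of 1 in every class drawn except chondrocyte-like cells.

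The makeup of the chondrocyte-like class differed between the libraries. It was split after the files were seen, at 1000 CPM of Chad (chondroadherin, a family gene of articular cartilage) and 10000 CPM of Col1a1 (type I collagen). Cells high in Chad and low in Col1a1 were 250 of 321 (77.9%) in the control but 10 of 39 (25.6%) in the CIA library. Cells low in Chad and high in Col1a1 were 46 (14.3%) and 20 (51.3%). Lum was at 1055 and 1278 CPM in the Chad-high cells and at 4172 and 4009 CPM in the Col1a1-high cells. The latter were 3.95-fold (3.75 to 4.17) and 3.14-fold (2.58 to 3.85) higher. The CIA cell richest in Lum, given above, was 1 of the 20 Col1a1-high cells, which held 936 Lum UMIs. Their level and the ratios that use it lean on that cell, and no value without it was computed for the subset. Within a subset the CIA to control ratio of Lum was 1.21 (0.993 to 1.46) and 0.961 (0.893 to 1.03), and the first of these intervals holds the class ratio of 1.35. The class was also split at 1000 CPM of Ibsp (bone sialoprotein, of mineralizing cells). The Lum ratio was then 0.989 (0.880 to 1.11) above the cut and 1.71 (1.59 to 1.85) below it. The CIA cell richest in Lum was below this cut, among 29 cells with 865 Lum UMIs. The ratio of 1.71 leans on it, and no ratio without it was computed there. The part of the makeup in the class ratio was not tested. Prelp went the other way in the control, 614 CPM in the Col1a1-high against 1499 CPM in the Chad-high cells (2.44-fold lower), but was 1259 against 1620 CPM in the CIA library. Inside the Col1a1-high cells Prelp was 2.05-fold higher in CIA (1.77 to 2.37), past the size rule. It was 1 of 5 members called in this subset, beside 11.1% of 1305 genes in either direction and 3.52% called higher. The call was lost, at log2 ratios from 0.69 to 0.99, with TMM factors, without the 50 most abundant genes, and with the marker cut doubled or halved. In the Chad-high cells none of the 5 was called, beside 6.69% of 2435 genes. Bgn, Fmod and Dcn were also higher in CIA in both subsets, and none of them was called. Bgn was 1.61-fold and 1.17-fold higher, Fmod 1.41-fold and 1.18-fold, and Dcn 1.58-fold and 1.34-fold. For Dcn a few cells carried the sums: the median Chad-high cell had 364 and 508 CPM, against 1501 and 2373 CPM in the summed cells.

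The Dcn ratio for the whole class, whose interval held 1, was lower than in these 2 subsets. The 11 control cells high in both Chad and Col1a1 had 3171 CPM of Dcn, and no CIA cell was in that subset. The 14 control cells low in both Chad and Col1a1 had 6319 CPM of Dcn, and the 9 such CIA cells 834 CPM, 7.58-fold lower. The median cell had 586 and 370 CPM. Bgn was 3.01-fold lower there (7413 and 2461 CPM) and Lum 2.21-fold lower (3213 and 1452 CPM). These 3 of 5 members were called, beside 21.7% of 484 genes in either direction and 12.2% called lower. With the marker cut doubled Lum was no longer called, at a log2 ratio of -0.0371. With classes from clusters no CIA cell was left in this subset. Cells with at least 1000 CPM of Ibsp had 2721 CPM of Dcn in the control (87 cells) and 1354 CPM in the CIA library (10 cells), while the other cells had 1381 and 1937 CPM. One control cell held 8.74% and one CIA cell 22.6% of all Dcn UMIs of the class. That CIA cell was among the 29 cells under the Ibsp cut, which held 587 Dcn UMIs. Their level of 1937 CPM leans on it, and no level without it was computed there.

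**Figure D3:**
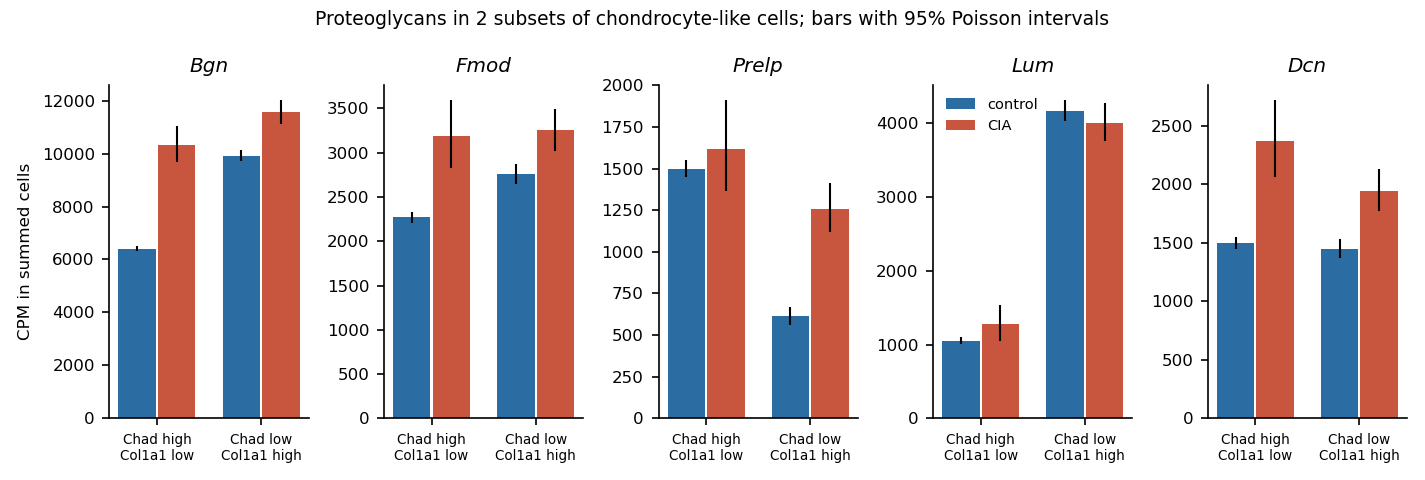
CPM of 5 members in summed chondrocyte-like cells of 2 subsets, blue for control (250 and 46 cells) and red for CIA (10 and 20 cells), bars from 0 with exact 95% Poisson intervals. Lum is about 4000 CPM in both libraries in the Col1a1-high cells, and Prelp is lowest in the control Col1a1-high cells at 614 CPM.

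In lining-like cells, 1 of 6 measured members was called, beside 3.66% of 8222 genes (2.3% called lower). Fmod was at 510 and 211 CPM, 2.42-fold lower (2.29 to 2.57). Prelp was 1.79-fold lower (269 and 150 CPM), Dcn 1.41-fold higher (14008 and 19696 CPM), Lum 1.11-fold higher (11338 and 12590 CPM) and Bgn nearly level at a ratio of 0.977. The median log2 ratio of the 6 was 0.04, and that of all genes -0.03. One control cell held 10.5% and one CIA cell 10.6% of the Fmod UMIs. When the marker cut was doubled the Fmod log2 ratio was -0.0894, and when classes came from clusters it was -0.75, neither called. With the cut doubled the Lum ratio was called higher instead, at a log2 ratio of 1.46.

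The lining cells with and without Clic5 were also compared apart, and the difference between their ratios was not tested. In Clic5-positive cells 2 of 5 measured members were called higher in CIA, beside 4.29% of 3330 genes called higher and 9.49% in either direction. Lum was at 1220 CPM in 109 control cells and 6386 CPM in 81 CIA cells, 5.23-fold higher (4.96 to 5.52). The median cell was at 584 and 2097 CPM, and 6.42% and 51.9% of the cells were above the endothelial 99th percentile. Dcn was at 8087 and 20817 CPM, 2.57-fold higher (2.52 to 2.63), with medians of 7400 and 19007 CPM. Bgn was at 1418 and 2191 CPM, 1.55-fold higher and not called. The other 2 measured members were lower in CIA and not called, as Fmod had 57.1 and 27.1 CPM, 2.11-fold lower (1.40 to 3.26), and Prelp 121 and 74.0 CPM, 1.64-fold lower (1.27 to 2.14). The summed fibroblast markers moved with these values, from a median of 5254 in control cells to 22572 CPM in CIA cells, and the cells were in different clusters, 103 of 109 in cluster 2 in the control and 73 of 81 in cluster 4 in the CIA library. Their part in the result was not tested.

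In Clic5-negative cells (184 and 714 cells) 2 of 6 measured members were called, both lower in CIA, beside 1.32% of 7713 genes called lower and 2.76% in either direction. Fmod was at 721 and 232 CPM, 3.11-fold lower (2.93 to 3.30), and Prelp at 337 and 159 CPM, 2.12-fold lower (1.96 to 2.29). Lum was at 16052 and 13310 CPM and Dcn at 16768 and 19566 CPM, neither called. These cells were spread differently over clusters, with 31.0% of control and 62.9% of CIA cells in cluster 4, 32.6% and 17.4% in cluster 0, and 21.2% and 5.60% in cluster 1, and the part of this in the ratios was not tested. With the marker cut doubled, Prelp was no longer called, at a log2 ratio of -0.28.

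**Figure D4:**
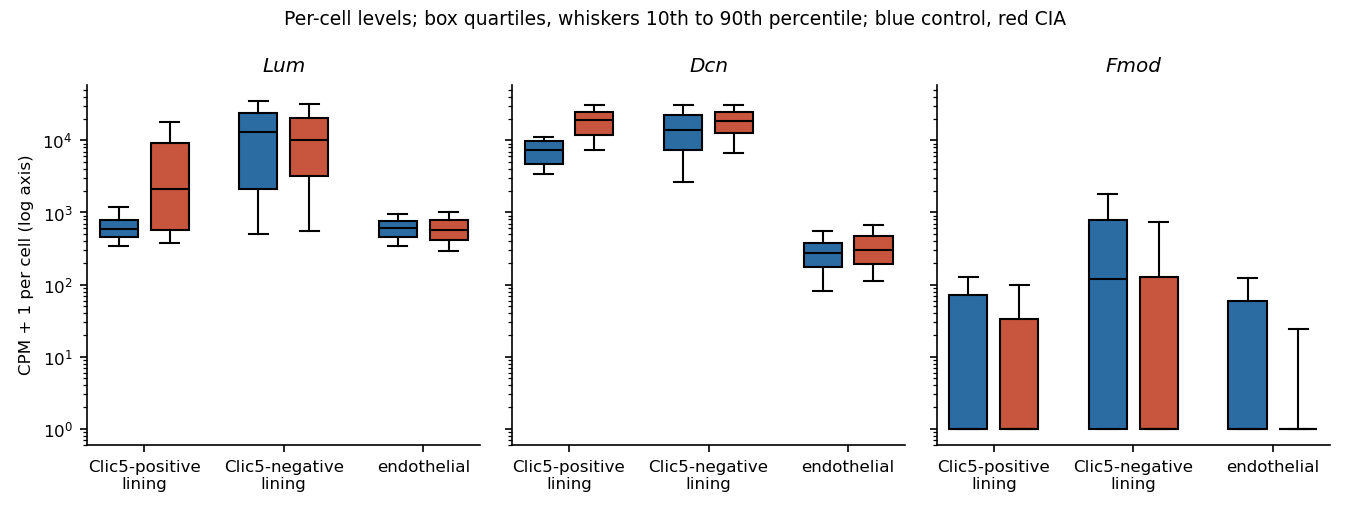
Per-cell CPM + 1 of Lum, Dcn and Fmod on a log axis in Clic5-positive lining, Clic5-negative lining and endothelial cells, blue for control and red for CIA; boxes are quartiles with the median, whiskers the 10th to 90th percentile. In the control library the Lum box of Clic5-positive lining (median 584) lies on the endothelial box (median 600), and in the CIA library its median is 2097.

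In fibroblast-like cells none of 6 measured members was called, beside 1.61% of 11138 genes. Fmod came nearest, at 375 and 213 CPM, 1.76-fold lower (1.71 to 1.80). Prelp was 1.33-fold lower (397 and 298 CPM), Bgn 1.19-fold lower (6317 and 5302 CPM), Dcn 1.14-fold higher and Lum 1.03-fold higher. The median log2 ratio of the 6 was -0.10, and that of all genes 0.05. By subset, none of 5 measured members was called in sublining fibroblasts (background 0.973%) and none of 6 in joint fibroblasts (1.15%). In fibroblasts outside the named subsets (907 and 1456 cells), 1 of 6 was called, beside 1.43% of 9736 genes (1.08% called lower): Fmod, at 417 and 191 CPM, 2.18-fold lower (2.10 to 2.28). With the marker cut halved it was no longer called, at a log2 ratio of -0.86.

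Fmod was also called lower in classes where it was at the floor. In endothelial cells 1 of 5 measured members was called (background 1.68%, and 1.48% called lower): Fmod, 38.4 and 9.37 CPM, 4.10-fold lower (3.09 to 5.52), with 1 control cell holding 14.9% of its UMIs. In macrophage- or monocyte-like cells 1 of 5 was called (background 4.38%, and 4.04% called lower): Fmod, 32.1 and 10.7 CPM, 2.99-fold lower (2.62 to 3.42). Chondrocyte-like cells, the class richest in Fmod, were 6.0% of the control and 0.464% of the CIA cells. Chad, a chondrocyte gene of the same family, was 118-fold lower in CIA in endothelial cells (32.4 to 977), which should lack it. An alternative added after the data were seen subtracted the endothelial level of the same library first. The Fmod log2 ratio was then -1.23 in lining-like cells and -1.06 in the fibroblasts outside the named subsets, both called. The part of RNA from chondrocytes in the Fmod ratios of other classes was not tested.

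Over all kept cells 1 of 6 measured members was called (background 5.09%, and 4.27% called lower), Fmod at 346 and 136 CPM, 2.54-fold lower. This value follows the mixture of cells as well as the level per cell, and fewer cells of a type and less RNA per cell cannot be told apart in it. Pericyte or smooth muscle-like cells had 1 of 3 called (background 4.4%, and 2.27% called lower): Lum, 3531 and 1181 CPM, 2.99-fold lower (2.61 to 3.44), where 1 of 23 control cells held 43.0% of the UMIs. With the cut doubled or halved it was not called, at log2 ratios of -0.69 and -0.43.

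Kera, the keratan sulfate proteoglycan named for the cornea and also known from tendon, was found in few cells and mostly in fibroblasts. Fibroblast-like cells held 89.0% of 952 control UMIs and 86.4% of 1546 CIA UMIs, in 166 of 2374 and 179 of 3320 cells. The richest control cell had 61 Kera UMIs, and endothelial cells had no more than 1 in any control cell. The level was 24.9 and 32.8 CPM, 1.32-fold higher in CIA (1.21 to 1.44) and not called. In matrix fibroblasts 1 of 6 measured members was called higher in CIA, beside 0.297% of 8083 genes called higher and 1.03% in either direction: Kera at 23.0 and 70.3 CPM, 3.06-fold higher (2.59 to 3.62). The share of matrix cells with a Kera UMI was 6.65% and 6.74%, and 3.53% and 5.46% with each cell thinned to 4000 UMIs. Over all UMIs, 11 of 49 positive control cells and 22 of 42 positive CIA cells had at least 5.

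Fibroblast-like cells with at least 200 CPM of Kera (53 control and 102 CIA cells) were set beside the other fibroblast-like cells. Tnmd (tenomodulin, a tendon gene) was at 118 and 116 CPM in them and at 1.65 and 0.380 CPM in the others. Thbs4 (thrombospondin 4) was at 585 and 732 CPM against 282 and 269, and Scx (scleraxis), a tendon transcription factor, at 127 and 165 against 68.5 and 71.8 CPM. Mkx had no UMI in them and 4 and 3 UMIs in the others, too few to compare. Genes of cartilage were higher in them too: Acan (aggrecan) was at 208 and 252 CPM against 72.5 and 90.1, and Ucma at 90.01 and 72.6 against 38.1 and 33.9 CPM. The proliferation gene Mki67 was at 160 against 51.2 CPM in the control and at 66.3 against 64.3 CPM in the CIA library. Fmod was 3.72-fold (3.48 to 3.96) and 3.47-fold (3.23 to 3.72) higher in these cells than in the other fibroblast-like cells, and Prelp 1.91-fold and 1.43-fold higher. Dcn was 2.03-fold and 2.52-fold lower and Lum 1.70-fold and 1.49-fold lower. None of the 53 control and 2 of the 102 CIA cells were sublining fibroblasts.

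Omd, a proteoglycan of mineralized tissue, had 42 UMIs in the control and 8 in the CIA library. Of the 42, 24 were in chondrocyte-like cells (57.1% of the UMIs, from 6.0% of the cells), where 21 of 321 cells had 1. In the control, chondrocyte-like cells with at least 1000 CPM of Ibsp had 4.13-fold the Omd level of the rest (1.63 to 11.8). This came from 17 and 7 UMIs. In the CIA library, the 3 Omd UMIs of the class were in 1 cell. Ogn had 42 and 33 UMIs, of which 39 and 31 were in fibroblast-like cells and none in endothelial cells. Epyc, a proteoglycan of growth plate cartilage, had 19 and 8 UMIs in all cells, 3 and 0 of them in chondrocyte-like cells. Over all kept cells, the CIA level was 7.11-fold lower for Omd (3.30 to 17.5), 3.22-fold lower for Epyc (1.34 to 8.50) and 1.72-fold lower for Ogn (1.07 to 2.81), values that move with the mixture of cells. All 3 were under the minimum of 100 UMIs, so none could be called. In chondrocyte-like cells the ratio of CIA to control for Omd, from 24 and 3 UMIs, was 1.04 with an interval of 0.201 to 3.43, too wide to show a difference at this depth.

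Of 9 other genes of the family, 8 were listed for both libraries, all but Podn. In chondrocyte-like cells 3 of them were measured and 2 were called lower in CIA, beside 5.49% of all genes measured there: Chad, 11138 and 1965 CPM (5.67-fold lower, 5.29 to 6.08), and Ecm2, 55.3 and 9.56 CPM (5.78-fold lower, 2.22 to 21.4). Chadl was 2.56-fold lower (1.32 to 5.68) and not called, but was called with TMM factors. The Chad-high, Col1a1-low cells given above were 77.9% and 25.6% of the class, and inside them Chad, which had set the split, was at 16475 and 9354 CPM. Aspn (asporin) had 13 UMIs in each library, all in fibroblast-like cells. Optc, Podnl1, Tsku and Ecm2 were measured in fibroblast-like cells and not called, and Nyx was under the minimum. Chad was 82.6-fold lower in fibroblast-like cells (116 and 1.40 CPM), beside 1.33% of genes called lower. It was also lower in endothelial cells, as given above, and in lining-like cells (a ratio of 0.0155 with TMM factors). The part of RNA from other cells in the fibroblast value was not tested. Tsku was called 2.18-fold higher in CIA in Clic5-positive lining cells (1.52 to 3.15).

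Genes that build, bind or cut these proteoglycans were counted from lists. In chondrocyte-like cells, where 4.59% of all genes measured were called higher in CIA, of 15 measured genes of chondroitin and dermatan sulfate synthesis 1 was called, Papss1 (a sulfate donor synthase, 2.26-fold higher), and of 5 measured genes of keratan sulfate synthesis and tyrosine sulfation none was. Of 17 fibril collagens and cross-linking genes 5 were called higher, led by Col6a2 (985 and 3266 CPM, 3.31-fold), Col3a1 (2.79-fold), Col12a1 (2.72-fold) and Col6a1 (2.66-fold), with a median log2 ratio of 0.78 for the list against 0.27 for all genes. Of 9 receptors and ligands Cd44 was called 2.66-fold higher and Bmp2 3.42-fold lower. Of 13 proteases and inhibitors 3 were called higher: Mmp3 (stromelysin, 947 and 2955 CPM, 3.12-fold), Timp1 (2.28-fold) and Mmp13 (collagenase 3, 2.04-fold). The median of that list was 0.82. With TMM factors the calls of Papss1, Cd44, Timp1, Mmp13 and Col5a1 were lost and those of Mmp3 and the 4 collagens named were kept. Col2a1 (type II collagen), which had itself helped to set the class, was called lower, at a ratio of 0.400. The list medians were then 0.41 for collagens and 0.44 for proteases. As given above, the CIA cells of this class were higher in the summed fibroblast markers, which include Col3a1. In the fibroblast cluster 1 were 38.5% of them, against 5.61% of the control cells. The part of this makeup in the calls was not tested. In lining-like cells 4 of 19 measured proteases and inhibitors were called higher, beside 1.36% of all genes. In fibroblast-like cells 1 of 19 was, beside 0.278%, and none was lower in either. Of collagens and cross-linking genes, 2 of 17 in lining-like and 2 of 19 in fibroblast-like cells were called lower and none higher. The background called lower was 2.3% and 1.33%. The 2 parts of the lining differed in this. In Clic5-positive lining cells 7 of 13 collagens and cross-linking genes were called higher and 1 lower. Of 15 proteases and inhibitors there, 8 were called higher and none lower, beside 4.29% of all genes called higher. In Clic5-negative cells 2 of 17 collagens and cross-linking genes were called lower and none higher. The part of the fibroblast markers, which also differed between the Clic5-positive cells, was not tested. Of receptors and ligands, 1 of 16 was called higher and 2 lower in lining-like cells, and none of 18 in fibroblast-like cells. The 2 synthesis lists had no call in either class.

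The genes whose level followed each member over 23 points (a class in 1 library, of at least 50 cells) were ranked by Pearson's r of log2(CPM + 10). Dcn was nearest to Olfml2b (0.989), Ssc5d and C1r. Bgn was nearest to Serpinf1 (0.990), Col1a1 and Col16a1, and Lum to Clmp (0.991), Mmp23 and Col3a1. Fmod was nearest to Loxl3 (0.945), RGD1305645 and Prelp (0.941), and Prelp to Loxl3 (0.960), Pdgfrl and Plekhh2. Kera was nearest to Draxin (0.920), Lrrc15 and Il11. The points share libraries and free RNA, so r is a description. Ogn, Omd and Epyc had too few UMIs to be ranked.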

How the data were processed

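Single-cell RNA sequencing of rat cartilage gave 1 control and 1 CIA library. The authors deposited raw UMI counts per gene and cell. Per the labels' protocols, tissue was dissociated with TrypLE and libraries were made with a Chromium 3' kit, and per the submitters' processing notes the build was mRatBN7.2. The aligner and the tools for counting and cell calling were not given in the sources used here. Barcodes are 3 blocks of 8 bases, which differs from the kit named.

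Cells under 200 genes or over 20% mitochondrial UMIs were dropped, and Scrublet doublet calls (1.15% and 1.94%) were left out. Classes came from summed CPM of marker lists, and the cuts and the scoring were set after the files were seen. The chondrocyte gate asked for 4000 CPM and 1000 CPM of Col2a1, lining for 20000 and fibroblast for 10000. Cells in several gates (79 and 93) or none (263 and 192) were set aside. UMIs were summed per class and library; intervals were exact Poisson, binomial or conditional, at 95%, and cover counting error only. Shares thinned to 4000 UMIs per cell are in the sensitivity comparison. The size rule was tried on simulated sums with counting error only, so this does not bear on spread between cells, animals or libraries. Members are named in full, other genes by the size rule in chondrocyte-like cells, up to 4 per list. The members and lists were chosen with earlier results of these data known. Python 3.11.15, scanpy 1.11.5, scipy 1.17.1 and edgeR 4.0.16 (for TMM factors only) were used.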

Additional observations from a re-analysis of the deposited data

Results flagged for a closer look

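Results were picked out where a member was higher in CIA in one class and lower in another, each with an interval on its own side of 1. With 1 library per group, none of these differences between classes was tested. The ratio of CIA to control for Dcn was 2.57 in Clic5-positive lining cells and 0.735 in joint fibroblasts. For Lum it was 5.23 in Clic5-positive lining cells and 0.334 in pericyte or smooth muscle-like cells, where 1 control cell held 43.0% of the UMIs. For Fmod it was 1.19 in chondrocyte-like cells and 0.244 in endothelial cells, at 9.37 CPM in the CIA library. For Prelp it was 1.15 in chondrocyte-like cells and 0.472 in Clic5-negative lining cells.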

How the results depend on the processing

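No paired analysis was possible because each group had 1 library. Of 248 recomputed CIA to control ratios (log2), 219 were counted as unchanged. These kept their side of the size rule and either kept their direction or, where uncalled, stayed inside the interval of the main ratio. With classes from clusters, Dcn in chondrocyte-like cells turned to 1.41 and was called higher, Bgn in lining-like cells was 0.0560, Fmod there was -0.75 and no longer called, and Prelp there was -1.36 and called. The chondrocyte over fibroblast log2 level of Bgn in CIA was then 1.07, past the rule. With the cut doubled, Dcn and Lum in chondrocyte-like cells were 0.13 and 1.08 (called), Bgn, Fmod and Lum in lining-like cells 0.45, -0.0894 and 1.46 (called), and Lum in fibroblast-like cells -0.0104. With it halved, Bgn, Fmod and Lum in chondrocyte-like cells were -0.0040, -0.0141 and -0.0181. With TMM factors, Bgn, Fmod and Prelp in chondrocyte-like cells were -0.0929, -0.13 and -0.17, and Bgn in lining-like cells 0.0507. Bgn in lining-like cells was 0.0186 without the 50 most abundant genes and 0.0334 with the endothelial level subtracted, an alternative chosen after seeing the data. Lum in chondrocyte-like cells was -0.0296 without the richest cells. The causes were not tested.

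With no UMI minimum, 642, 603 and 356 genes passed the size rule in chondrocyte-, lining- and fibroblast-like cells, against 380, 301 and 179. The share called higher in chondrocyte-like cells was 45.5%, and 14.3% with TMM factors. Of 48 shares of cells with a UMI, 37 moved beyond their interval when all UMIs were used instead of 4000 per cell. With 39 CIA chondrocyte-like cells, single cells set levels of Lum and Dcn there.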
